A study of Mus musculus with 6 samples.

Results

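Genes known to respond to low oxygen, other than those of glycolysis, were followed in hearts of mouse embryos labelled as a conditional knockout of Trim28. The 10 genes, Hif1a, Egln1, Egln3, Bnip3, Higd1a, Adm, Car9, Ero1a, Ndrg1 and Ankrd37, were taken by symbol from a deposited table of 30619 genes. Of these, 9 stood in the table under that symbol, and Ero1a stood under its older symbol Ero1l. The hearts were taken at embryonic stage E12.5 from embryos whose libraries are titled CKO, with a genotype label that reads TRIM28 knockdown, and from wild-type (WT) embryos titled CTR, called controls here. Poly(A) RNA of whole hearts, described as mixed cardiac cells, was sequenced in 3 CKO and 3 control libraries. The sources used here do not state the Cre driver, the deleted exons, the strain or the number of hearts per library. Nor do they say whether libraries stand for separate embryos or pools, so each p-value covers only the spread among these 6 libraries.

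Cells sense oxygen through hypoxia-inducible factors (HIF), transcription factors with an alpha subunit, such as HIF-1 alpha from Hif1a, and a beta subunit from Arnt. With oxygen present, prolyl hydroxylases encoded by the Egln genes mark the alpha subunit, the VHL protein binds it and it is degraded, so HIF activity is set largely by protein stability rather than by the mRNA of Hif1a. When oxygen is low the alpha subunit persists and binds short DNA elements near its target genes. The targets described here act in feedback on the pathway (Egln1, Egln3), in mitochondria (Bnip3, Higd1a), as a secreted peptide (Adm), at the cell surface (Car9) and in protein folding (Ero1a). The embryonic heart grows in a low-oxygen environment, and its muscle relies strongly on glycolysis.

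The HIF-binding element has the core ACGTG or GCGTG, and because 5 of the genes below rose together with the smallest adjusted p among the 10, their promoters are shown with each match to this core in capitals. Matches were sought on both strands, so an opposite-strand match reads CACGT or CACGC, and overlapping matches run together. The sequences are those of RefSeq on GRCm38.p6, 250 bases before to 50 after the start of the gene, written along the gene's own strand.
Bnip3, chr7:138909457-138909756, minus strand: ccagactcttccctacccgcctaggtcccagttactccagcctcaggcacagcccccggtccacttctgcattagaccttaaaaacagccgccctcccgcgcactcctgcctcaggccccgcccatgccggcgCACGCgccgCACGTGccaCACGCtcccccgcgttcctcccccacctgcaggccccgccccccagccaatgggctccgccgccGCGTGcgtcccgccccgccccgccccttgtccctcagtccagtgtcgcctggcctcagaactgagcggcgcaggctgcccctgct
Egln1, chr8:124949205-124949504, minus strand: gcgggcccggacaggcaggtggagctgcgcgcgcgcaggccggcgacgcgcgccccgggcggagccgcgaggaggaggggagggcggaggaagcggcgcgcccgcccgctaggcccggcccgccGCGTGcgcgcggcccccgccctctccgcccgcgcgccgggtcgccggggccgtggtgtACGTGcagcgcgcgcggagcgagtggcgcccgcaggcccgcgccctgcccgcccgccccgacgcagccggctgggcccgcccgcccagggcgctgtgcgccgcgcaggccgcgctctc
Adm, chr7:110627407-110627706, plus strand: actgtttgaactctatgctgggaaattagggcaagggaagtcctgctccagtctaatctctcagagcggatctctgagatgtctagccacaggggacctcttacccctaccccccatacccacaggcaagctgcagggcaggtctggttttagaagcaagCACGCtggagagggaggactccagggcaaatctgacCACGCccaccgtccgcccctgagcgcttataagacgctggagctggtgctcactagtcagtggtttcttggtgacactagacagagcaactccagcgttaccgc
Egln3, chr12:54203825-54204124, minus strand: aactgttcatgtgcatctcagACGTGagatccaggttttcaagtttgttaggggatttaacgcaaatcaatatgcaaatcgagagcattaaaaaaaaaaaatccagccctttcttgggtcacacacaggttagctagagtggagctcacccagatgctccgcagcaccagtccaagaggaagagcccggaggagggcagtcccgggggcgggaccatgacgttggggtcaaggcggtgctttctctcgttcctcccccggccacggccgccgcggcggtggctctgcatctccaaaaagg
Higd1a, chr9:121857747-121858046, minus strand: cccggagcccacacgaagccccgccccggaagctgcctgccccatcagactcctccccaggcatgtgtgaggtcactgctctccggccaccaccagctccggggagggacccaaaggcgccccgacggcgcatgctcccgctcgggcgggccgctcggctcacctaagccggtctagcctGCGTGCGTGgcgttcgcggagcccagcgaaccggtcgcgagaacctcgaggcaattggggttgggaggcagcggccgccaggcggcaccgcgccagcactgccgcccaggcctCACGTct
The Bnip3 promoter held 5 matches in 4 separate stretches, one of them the palindrome CACGTG, whose 2 overlapping matches begin 108 and 107 bases before the gene's start. Egln1 and Adm held 2 matches each, Higd1a 3, of which 2 overlap, and Egln3 1. Ero1a, which also rose, held 3, and among the genes that were not called Ankrd37 held 4, Hif1a 3 and Car9 1. The windows of Ankrd37 and Hif1a lie wholly after the RefSeq start of the gene, while the others begin 250 bases before it. RefSeq promoters were found for 9 of the 10 genes, and all 9 held at least 1 match, as did 43.8% of the 32851 promoters of that length in the RefSeq table and 61.1% of 11655 genes tested here with a promoter in it. The core contains CG, so it is met more often in GC-rich sequence. GC content was between 54.7% (Egln3) and 86% (Egln1) in the 9 promoters, against a median of 60.7% in the promoters of tested genes. A match to these letters does not show binding.

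The libraries held between 34400841 and 39763233 counts. Trim28 was measured at 172, 314 and 165 CPM (counts scaled to a common library size) in CKO replicates 1, 2 and 3, against 305, 391 and 443 CPM in the controls. The library labelled CKO 2 thus lay within the control range. Values without it are given for each of the 10 genes and for some of the others. Over all 6 libraries Trim28 was not called lower in edgeR's quasi-likelihood test (log2 fold change -0.81, 95% interval -1.74 to 0.12, adjusted p = 0.339). All 7 cardiomyocyte markers examined were present, each at a mean of at least 147 CPM, and 1 of them, Myh6, was called higher in CKO (log2 fold change 0.33, adjusted p = 0.0103). A ribosomal RNA row took from 0.563% to 0.79% of counts in CKO libraries, against 0.126% to 0.522% in controls, so this share moves with the group. The female transcript Xist and the Y-linked Ddx3y were both found in CKO replicate 1 and in control replicates 1 and 3, CKO replicates 2 and 3 held Ddx3y with at most 7 counts of Xist, and control replicate 2 held Xist only, so the mix of sexes also differs between the groups.

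Hypoxia-induced genes were mostly higher in CKO hearts. Of the 10, 6 rose (Bnip3, Egln1, Adm, Egln3, Higd1a and Ero1a), none fell and 4 were not called (Car9, Ankrd37, Hif1a and Ndrg1). Called means an adjusted p below 0.05 in edgeR's quasi-likelihood test, which called 3.03% of all 17557 tested genes higher and 1.07% lower. All 10 passed the filter on low counts and had a positive log2 fold change (CKO over control), from 0.074 to 1.09 with a median of 0.42, beside a median of 0.0035 over all tested genes. Every CKO library lay above every control library in 8 of the 10, a pattern found in 11.5% of all tested genes. The 10 genes were chosen with earlier results of these data known. These contrasts with all tested genes are therefore not independent evidence. Without CKO replicate 2, 6 were again called, beside 5.57% of all genes, and 4 were called when CKO replicate 3 or any 1 of the controls was left out. The share of all genes called higher in those fits was 1.49% without CKO replicate 3 and 1.41%, 1.72% and 1.4% without control replicate 1, 2 and 3. With the ribosomal RNA share as a covariate 4 were called, beside 0.302% of all genes, and with Ddx3y as a covariate 3, beside 1.51%. Higd1a and Ero1a lost their calls with the ribosomal RNA covariate, at log2 fold changes of 0.30 (SE 0.11) and 0.42 (SE 0.13). In the reported fit they were 0.30 (SE 0.063) and 0.34 (SE 0.079). With Ddx3y, the calls of Egln3, Higd1a and Ero1a were lost at 0.55 (SE 0.15), 0.29 (SE 0.081) and 0.29 (SE 0.10). Since both covariates move with the group, the effect of a covariate cannot be told apart from that of the group. In RNA of whole hearts, a change in the number of cells of a type and a change in RNA per cell cannot be told apart.

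**Figure D1:**
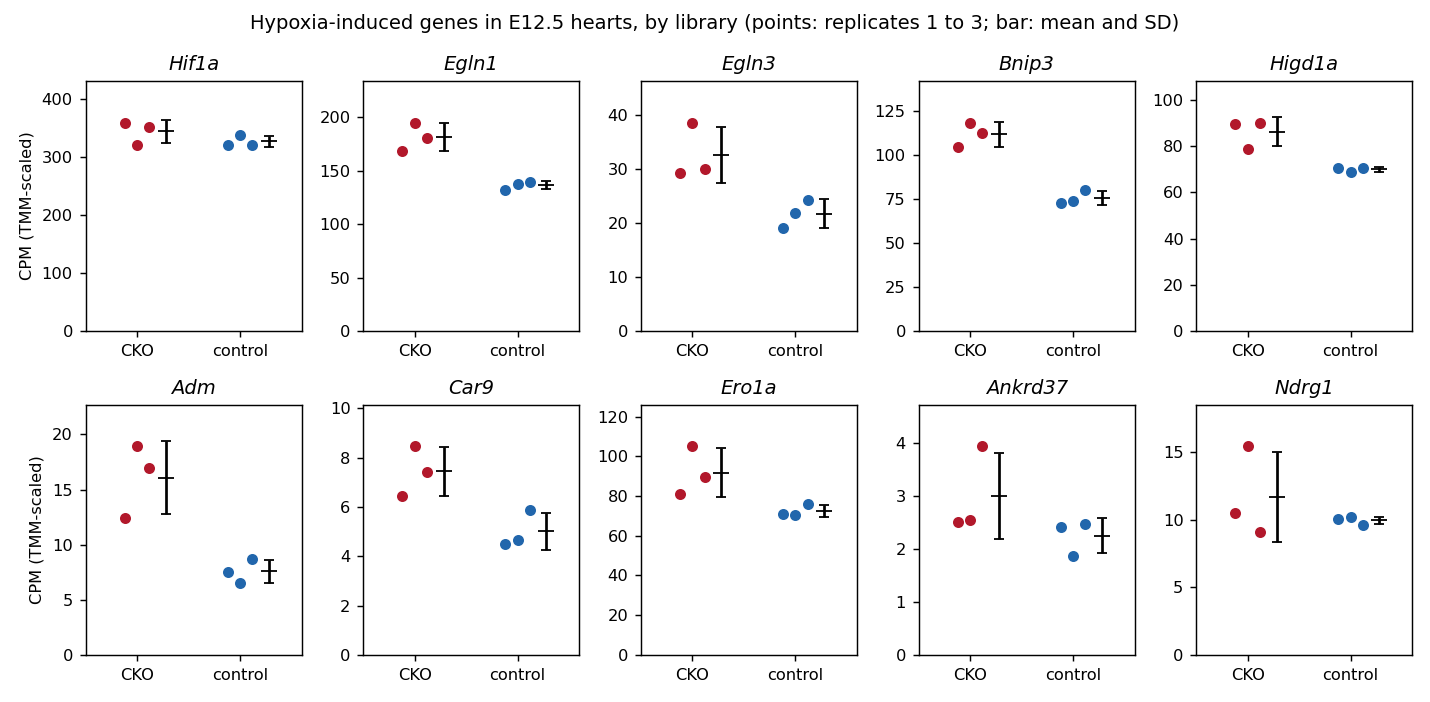
Level of each gene in CPM (vertical axis, from 0, scale differing by panel) in the 3 CKO and 3 control libraries, with mean and SD beside the points. The groups part in 8 panels and overlap for Hif1a and Ndrg1.

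Of the sensing arm, the hydroxylase genes Egln1 and Egln3 were higher, while Hif1a was not called. Egln1 encodes PHD2, the main hydroxylase acting on HIF-1 alpha, and was measured at 168.5, 194.7 and 180.5 CPM in CKO hearts, against 132, 137 and 140 CPM in control hearts. Each CKO library exceeded each control library. The means were 181 ± 13.2 CPM in CKO and 136 ± 3.72 CPM in controls (SD, n = 3 each), a log2 fold change of 0.41 (standard error, SE, 0.059, adjusted p = 0.000388). Egln3 encodes PHD3, a related hydroxylase that is itself strongly induced by HIF, and was at 29.2, 38.5 and 30.0 CPM in CKO hearts, against 19.0, 21.9 and 24.3 CPM in control hearts. The groups did not overlap, and the CKO spread came mostly from replicate 2. The log2 fold change of Egln3 was 0.58 (SE 0.11, adjusted p = 0.00783). Without CKO replicate 2 it was 0.45 (adjusted p = 0.00434), and Egln3 was not called with Ddx3y as a covariate (0.55, adjusted p = 0.0937). Its call was close to the threshold with the ribosomal RNA covariate (adjusted p = 0.0476) and without control replicate 1 (0.0464) or 2 (0.049). Without CKO replicate 2 the log2 fold change of Egln1 was 0.36 (adjusted p = 0.000111). Egln1 was called whichever library was left out (6 fits) and with either covariate, at an adjusted p of 0.0436 with the ribosomal RNA share.

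Hif1a, the gene of the regulated subunit, was at 358, 320 and 352 CPM in CKO hearts, against 321, 337 and 321 CPM in control hearts. The groups overlapped, and CKO replicate 2 was the lowest of the 6 libraries. Its log2 fold change was 0.074, with a 95% interval from -0.039 to 0.19 (adjusted p = 0.528), and 0.12 without CKO replicate 2 (adjusted p = 0.164).

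Among the mitochondrial genes, Bnip3 had the smallest adjusted p of the 10. It encodes an outer-membrane protein that promotes mitophagy, the removal of mitochondria, and was at 105, 118.5 and 112 CPM in CKO hearts, against 72.7, 74.1 and 80 CPM in control hearts. The lowest CKO library lay well above the highest control. The means of 112 ± 6.98 CPM in CKO and 75.6 ± 3.87 CPM in controls (SD, n = 3 each) gave a 1.48-fold difference, with a log2 fold change of 0.56 and a 95% interval from 0.43 to 0.70. Bnip3 was called without each library in turn (log2 fold changes of 0.52 to 0.60, adjusted p up to 0.00123) and with either covariate. Without CKO replicate 2 its log2 fold change was 0.52 (adjusted p = 3.23e-06). Higd1a encodes a small inner-membrane protein that associates with the respiratory chain. It was at 89.5, 78.9 and 90.1 CPM in CKO hearts, against 70.6, 68.8 and 70.4 CPM in control hearts. The groups did not overlap, and CKO replicate 2 was here the CKO library nearest to the controls. The log2 fold change of Higd1a was 0.30 (SE 0.063, adjusted p = 0.00894), and 0.36 without CKO replicate 2 (adjusted p = 0.000238). Higd1a lost its call when CKO replicate 3 was left out (adjusted p = 0.0835), when control replicate 1, 2 or 3 was left out (0.0503, 0.0582 and 0.0553), and with the ribosomal RNA covariate (0.369) or the Ddx3y covariate (0.0823).

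Adm had the largest fold change of the 10 genes. It encodes adrenomedullin, a secreted vasodilator peptide needed for vascular development in the mouse embryo, and was at 12.4, 18.9 and 16.9 CPM in CKO hearts, against 7.50, 6.54 and 8.68 CPM in control hearts. The groups did not overlap, and the controls ran from 6.54 to 8.68 CPM. The level was 2.12-fold higher in CKO (means of 16.1 ± 3.33 CPM in CKO and 7.58 ± 1.07 CPM in controls, SD, n = 3 each), with a log2 fold change of 1.09, a 95% interval from 0.76 to 1.41 and an adjusted p of 0.000552. Adm was called without each library in turn (log2 fold changes of 0.96 to 1.23). The lowest was that without CKO replicate 2 (0.96, adjusted p = 0.000122). Adm was also called with either covariate, at an adjusted p of 0.0383 with the ribosomal RNA share and 0.0171 with Ddx3y. Car9 encodes a carbonic anhydrase of the cell surface that hydrates carbon dioxide and acidifies the outside of hypoxic cells. It was at 6.46, 8.46 and 7.43 CPM in CKO hearts, against 4.49, 4.67 and 5.88 CPM in control hearts. The groups did not overlap, but Car9 was not called (log2 fold change 0.57, 95% interval 0.22 to 0.93, adjusted p = 0.0649), nor was it without CKO replicate 2 (0.47, adjusted p = 0.12). It was called when genes of low counts were not filtered out (adjusted p = 0.0217). Car9 shares 214 exon bases with an antisense gene, Gm12454, which had 43 to 122 counts a library where Car9 had 179 to 294. Whether the counting used strand is not given in the sources used here.

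Ero1a encodes an oxidase of the endoplasmic reticulum that restores protein disulfide isomerase during disulfide bond formation. It was at 80.9, 105 and 89.7 CPM in CKO hearts, against 71.1, 70.4 and 75.8 CPM in control hearts. The groups did not overlap, and CKO replicate 2 stood highest. Its log2 fold change was 0.34 (SE 0.079, adjusted p = 0.0226), and 0.24 without CKO replicate 2 (adjusted p = 0.0231). Ero1a lost its call when CKO replicate 3 (adjusted p = 0.0807) or control replicate 1, 2 or 3 (0.106, 0.119 and 0.0709) was left out, without scaling factors (0.0514), or with the ribosomal RNA (0.288) or Ddx3y covariate (0.205).

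The remaining pair, Ankrd37 and Ndrg1, was not called. Ankrd37, an ankyrin repeat gene induced by HIF-1 in human cells, was the lowest of the 10 by CPM, at 2.51, 2.56 and 3.94 CPM in CKO hearts, against 2.41, 1.87 and 2.48 CPM in control hearts. The groups touched without overlapping, and CKO replicate 3 stood apart. Its log2 fold change was 0.43, with an interval from -0.11 to 0.97 (adjusted p = 0.42). Without CKO replicate 3 its log2 fold change was 0.17 (adjusted p = 0.878), and without CKO replicate 2 it was 0.53 (adjusted p = 0.285). Ankrd37 shares 349 exon bases with Lrp2bp and 57 with Ufsp2 on the other strand, and both had counts in every library. Ndrg1, a hypoxia- and stress-induced gene that is mutated in a human peripheral neuropathy, was at 10.5, 15.4 and 9.12 CPM in CKO hearts, against 10.04, 10.2 and 9.64 CPM in control hearts. Its log2 fold change of 0.22 (interval -0.12 to 0.57, adjusted p = 0.529) came from CKO replicate 2, without which it was -0.022 (adjusted p = 0.958).

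**Figure D2:**
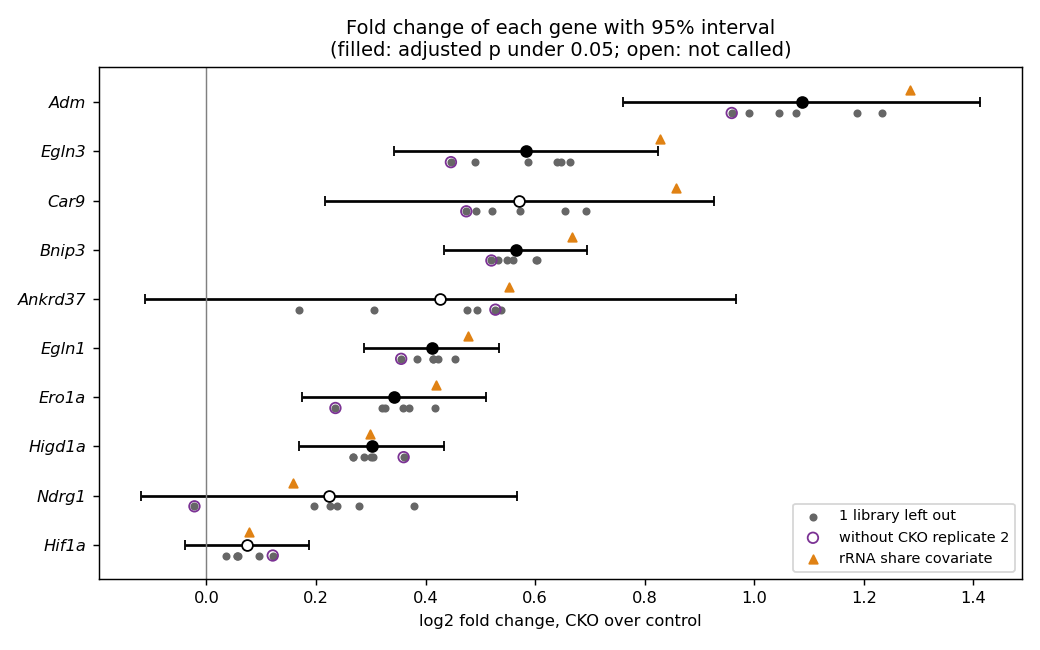
Log2 fold change (horizontal axis, CKO over control) of each gene with its 95% interval, filled where the adjusted p was under 0.05. Grey points leave out 1 library each, the open circle leaves out CKO replicate 2 and triangles add the ribosomal RNA share as a covariate. The 6 called genes keep positive values throughout, and Ndrg1 reaches -0.022 without CKO replicate 2.

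The library labelled CKO 2, in which Trim28 was highest among the CKO libraries, was also the highest CKO library for 7 of the 10 genes and the lowest for 2, Hif1a and Higd1a. CKO replicate 1 was the lowest for 7. How often these libraries were highest or lowest over all tested genes was not counted, so the pattern may not be particular to these genes.

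Per kilobase of annotated exon, the scale on which genes can be compared, levels in CKO hearts ran from Hif1a (58.2 ± 3.47 CPM per kb, SD, n = 3), Egln1 (50.4 ± 3.65) and Bnip3 (49.4 ± 3.08) through Higd1a (28.3 ± 2.07), Ero1a (17.4 ± 2.31), Egln3 (12.2 ± 1.95) and Adm (9.94 ± 2.05) to Car9 (3.23 ± 0.43), Ankrd37 (1.95 ± 0.53) and Ndrg1 (1.77 ± 0.50). The order of mean levels per kilobase was the same in controls but for the lowest pair, with Hif1a at 55.3 ± 1.59, Egln1 at 37.9 ± 1.03 and Bnip3 at 33.4 ± 1.71 CPM per kb (SD, n = 3 each). Egln1 and Bnip3 overlapped each other in CKO libraries (46.9 to 54.2 and 46.2 to 52.3 CPM per kb) and not in controls (36.8 to 38.8 and 32.1 to 35.3). Egln3 and Adm overlapped in CKO, as did Ankrd37 and Ndrg1 in both groups.

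Close relatives allowed a comparison within each library. Bnip3l, the relative of Bnip3 that clears mitochondria from maturing red cells, was at 143, 153 and 142 CPM in CKO hearts, against 143, 143 and 141 CPM in control hearts (log2 fold change 0.036, 95% interval -0.076 to 0.15, adjusted p = 0.805). Per kilobase, the ratio of Bnip3 to Bnip3l was 1.24, 1.32 and 1.35 in CKO libraries, against 0.86, 0.89 and 0.97 in control libraries. On that scale Bnip3 was the higher of the pair in each CKO library and the lower in each control. In CPM, before division by exon length, Bnip3 was the lower in every library. Which gene of the pair was higher thus depends on the exon lengths used, while the shift of the ratio between groups does not. Egln2, the third hydroxylase gene, was at 63.2, 59.7 and 65.4 CPM in CKO hearts, against 63.9, 67.4 and 61.4 CPM in control hearts. The ratio of Egln1 to Egln2 per kilobase was 2.26 ± 0.25 in CKO and 1.66 ± 0.10 in controls, and that of Egln3 to Egln2 was 0.55 ± 0.11 in CKO and 0.36 ± 0.053 in controls (SD, n = 3 each). These 3 ratios did not overlap between the groups, and each gave the smallest p that 3 against 3 libraries allow in a two-sided exact permutation test (p = 0.1, adjusted over 4 ratios 0.133). The ratio of Egln3 to Egln1 overlapped (0.24 ± 0.023 in CKO and 0.21 ± 0.020 in controls, exact permutation p = 0.3, adjusted 0.3).

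**Figure D3:**
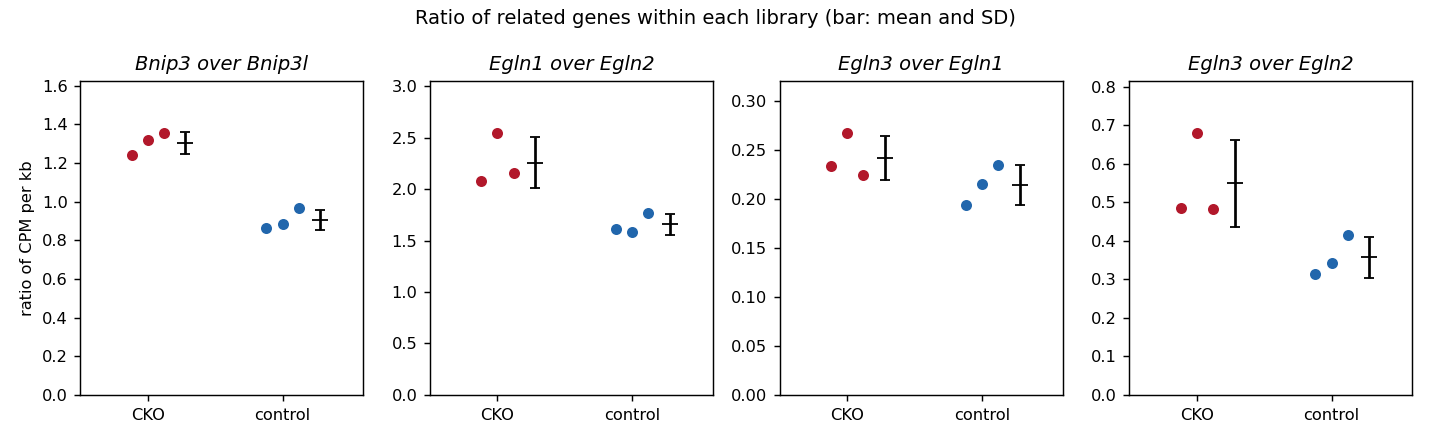
Ratio of CPM per kb of exon between related genes within each library (vertical axis, from 0), with mean and SD. Bnip3 over Bnip3l lies above 1 in all 3 CKO libraries and below 1 in all 3 controls, while Egln3 over Egln1 overlaps.

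The other regulators of oxygen sensing were not called, and many other targets were higher. Of 8 regulators (Epas1, Hif3a, Arnt, Arnt2, Egln2, Vhl, Hif1an and Cited2), none was called and none had an unadjusted p under 0.05 in edgeR, and DESeq2 and limma-voom also called none. Their log2 fold changes lay between -0.20 and 0.020. Vhl, whose product marks HIF alpha for destruction, was at -0.0060 (95% interval -0.15 to 0.14), Arnt, the beta subunit, at 0.020 (-0.11 to 0.15), Arnt2, its relative, at -0.058 (-0.25 to 0.14), Hif1an, an asparaginyl hydroxylase that blocks HIF activity, at -0.040 (-0.15 to 0.071), and Cited2, which competes with HIF for a coactivator, at -0.10 (-0.26 to 0.061). Epas1, which encodes HIF-2 alpha, was at 41.6, 57.4 and 50.6 CPM in CKO hearts, against 57.6, 60.8 and 53.9 CPM in control hearts. Hif3a, whose product can restrain HIF, was at 107.5, 144 and 113 CPM in CKO hearts, against 135, 142 and 143 CPM in control hearts. CKO replicate 2 lay within the control range for Epas1 and above it for Hif3a, and without it Epas1 (-0.32, adjusted p = 0.0132) and Hif3a (-0.34, adjusted p = 0.000262) were called lower. Hif3a was also called without the filter on low counts.

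Of 46 further HIF targets outside glycolysis, 17 were higher and 2 lower, beside 3.03% and 1.07% of all tested genes. Their median log2 fold change was 0.23, beside 0.0035 over all tested genes. The target lists were chosen with earlier results of these data known. Among the called rises with the smallest adjusted p were Ier3, an immediate-early gene (log2 fold change 0.93, SE 0.092, adjusted p = 8.83e-06), Edn1, the endothelin precursor (0.82), Vldlr, a lipoprotein receptor (0.46), P4ha1, a subunit of collagen prolyl hydroxylase (0.48), and Stc2, a secreted glycoprotein (0.89). Each of these 5 was called without each library in turn, and all but Edn1 (adjusted p = 0.0643) with the ribosomal RNA covariate. Stc2 was at 19.5, 27.2 and 21.96 CPM in CKO hearts, against 10.6, 13.9 and 12.55 CPM in control hearts, with no overlap. The lower genes were Nos3 (-0.36, adjusted p = 0.0107) and Kdr (-0.26, adjusted p = 0.046), both expressed in endothelium, and both depended on single libraries: leaving out 1 at a time, Kdr was called in 1 of 6 fits and Nos3 in 3. Vegfa, the angiogenic ligand of Kdr, picked out after its values were seen, was at 144, 202.5 and 165 CPM in CKO hearts, against 120, 121 and 123 CPM in control hearts, and was not called (0.49, adjusted p = 0.0533). Vegfa was called in 2 of the 6 fits with a library left out, among them that without CKO replicate 2 (0.35, adjusted p = 0.000327). Of 26 glycolytic targets, 14 were higher and none lower, beside the same 3.03% and 1.07% of all tested genes, with a median log2 fold change of 0.21. The smallest adjusted p values were those of Slc16a3 (0.90), Hk2 (0.73), Pfkp (0.45), Pfkl (0.31), Slc2a3 (0.79) and Ldha (0.25), of which Ldha lost its call without CKO replicate 3, control replicate 1 or control replicate 3 (adjusted p up to 0.0706). With the ribosomal RNA covariate Pfkl (adjusted p = 0.327), Slc2a3 (0.0836) and Ldha (0.301) were not called, and Slc16a3, Hk2 and Pfkp were. These counts moved with single libraries: without control replicate 1 or control replicate 3 they were 11 targets outside glycolysis and 5 glycolytic targets, and without CKO replicate 3 they were 12 and 6, where the share of all genes called higher had also fallen, to 1.41%, 1.4% and 1.49%. With the ribosomal RNA covariate they were 6 and 3, beside 0.302% of all genes, and without CKO replicate 2 they were 18 and 14, beside 5.57%.

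**Figure D4:**
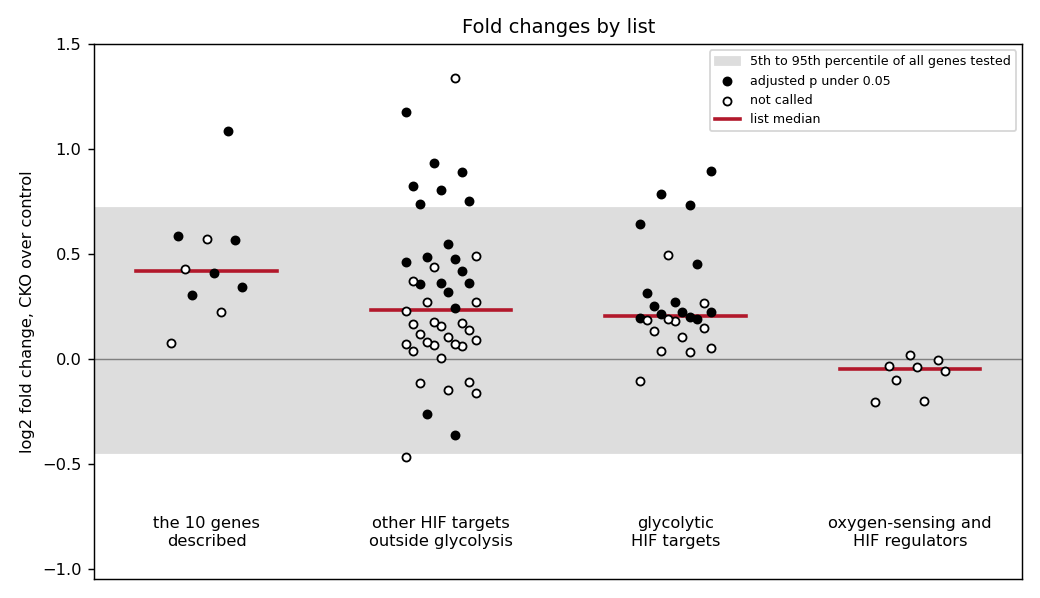
Log2 fold changes (vertical axis, CKO over control) of the 10 genes and of the 3 lists, filled where the adjusted p was under 0.05, with list medians in red. The grey band runs from -0.45 to 0.72, the 5th to the 95th percentile of all tested genes. Most targets lie above 0, and the 8 regulators lie between -0.20 and 0.020.

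The summed levels of endothelial, smooth muscle and macrophage markers parted between the groups, and those of erythroid markers overlapped. The counts of called markers below stand beside 3.03% of all tested genes called higher and 1.07% called lower. The summed level of 7 endothelial markers was 1168 to 1370 CPM in CKO libraries, against 1400 to 1479 CPM in controls, with 3 of 7 called lower. That of 4 smooth muscle markers was 2142 to 2602 CPM in CKO, against 1509 to 1533 CPM in controls, with 3 of 4 called higher. Most of it was Acta2, at means of 1891 CPM in CKO and 1208 CPM in controls. Cnn1 was at 430 CPM in CKO and 311 CPM in controls. The other markers were low, with Myh11 at 13.6 and 4.40 CPM, and Tagln, which was not called, at 2.06 and 1.37 CPM. The summed level of 8 macrophage markers was 104 to 120 CPM in CKO, against 89.3 to 97.1 CPM in controls. Of these, 3 of 8 were called higher, all of them C1q genes (C1qa, C1qb and C1qc). The 9 erythroid markers summed to 1023 to 1151 CPM in CKO and 1141 to 1993 CPM in controls, with none called. No marker of these 4 lists was at 0 in any library. Of 6 epicardial and 4 neural and glial markers none was called, 1 of 6 mesenchymal markers (Postn) was lower, and the skeletal muscle gene Myod1 and the liver genes Alb, Afp and Apoa1 were at 0 in at least 1 library. Their part in the results above was not tested. Removing erythroid and mitochondrially encoded genes before scaling left 6 of the 10 genes called. That step changes only the scaling, so it cannot show whether counts of the 10 genes came from such cells.

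The profiles most like those of the 3 genes with the smallest adjusted p were sought by the root mean square distance between log2 CPM values over the 6 libraries, each profile centred on its own mean. Nearest to Bnip3 were Ccn1, a matricellular gene (distance 0.050 log2 units), and P4ha1 (0.050), which is one of the HIF targets listed above. Nearest to Egln1 were Jmjd6, which encodes a dioxygenase of the jumonji class (0.040), and Abra, whose product binds actin (0.040). Nearest to Adm were the predicted gene Gm49130 (0.076) and Gipr, the receptor gene for the gut hormone GIP (0.12). With 6 libraries in 2 groups, such nearness mostly reflects a like difference between the groups.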

How the data were processed

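RNA-seq of 3 CKO and 3 control libraries of E12.5 hearts was analysed from the deposited table of read counts per gene symbol. The labels' descriptions name these as raw counts. Reads were placed on mm10, per the submitters' processing notes. The aligner, the counter, the annotation and the use of strand were not given in the sources used here. Groups and replicate numbers came from the titles. Genes were filtered with filterByExpr (minimum count 10, total 15), which left 17557 genes and removed 0.0756% of counts. Counts were scaled with TMM and tested with edgeR 4.0.16 in R 4.3.3 (robust quasi-likelihood fit, group as the only term, two-sided), with Benjamini-Hochberg adjustment over all tested genes and n = 3 per group. Every adjusted p in the text is from this test or the named alternative. Each SE was taken as the log2 fold change over the square root of F, and intervals are 95%. CPM used TMM-scaled library sizes. Exon lengths, positions and overlaps came from GENCODE M21 and promoters from RefSeq (GRCm38.p6). The pipeline was tested on simulated counts. The members and lists were chosen with earlier results of these data known. The genes named were the 10, Trim28, the 8 regulators, up to 6 called genes per target list and the nearest profiles. One gene that this rule names is not reported here. Nkx2-5 and globin symbols, altered in the table, were matched by their altered form. Alternatives were DESeq2 1.42.0, limma-voom (limma 3.58.1), other scalings and filters, single libraries left out, a replicate block and covariates.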

Additional observations from a re-analysis of the deposited data

How the results depend on the processing

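The sign of the log2 fold change was kept by 9 of the 10 genes under all 20 alternatives, and Ndrg1, which was not called, ranged from -0.022 (without CKO replicate 2) to 0.38 when 1 library was left out. The number of the 10 called higher was 6 in the reported fit, ranged from 4 to 6 when 1 library was left out, and was 3 with Ddx3y as a covariate and 7 without the filter on low counts. The number called lower was 0 throughout. When 1 library was left out, the other targets outside glycolysis numbered 11 to 20 higher and 0 to 3 lower, glycolytic targets 5 to 14 higher, and regulators 0 to 2 lower. Over all tested genes, 532 were higher in the reported fit, 255 to 1012 when 1 library was left out, 863 without the filter, 265 with Ddx3y and 53 with the ribosomal RNA share as a covariate. Same-numbered CKO and control libraries showed no strong shared deviation (correlations of -0.002, 0.017 and 0.001 over genes). With 3 libraries per group, that cannot exclude that samples were paired by number. With the replicate block, 6 of the 10 genes, 19 other targets and 12 glycolytic targets were called higher. Ankrd37, with 72 to 156 counts a library, had the fewest counts and the largest standard error (0.26) of the 10.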
